A study of Sus scrofa with 14 samples.

Results

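CD antigens are surface molecules numbered in the order in which antibodies defined them, and many of them mark a lineage of leukocytes. All genes with a symbol in which a digit directly follows CD were taken, except CD74 and CD36, where a probe carried a RefSeq accession of that gene. This gave 39 genes out of 3020 named genes on the arrays, and out of 82 pig reference symbols that fit the rule. Each gene was represented by its probe with the highest mean signal. The lineage of a gene was taken from general knowledge of the antigen, and the genes were grouped as 10 of T and NK cells, 6 of B cells, 13 of monocytes, macrophages and dendritic cells, 3 of several leukocyte lineages, 1 of endothelium and 6 of epithelium and most cell types.

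The samples were mucosal scrapings from jejunum segments of 7 male piglets of 5 weeks, with genotype and strain not given, perfused for 6 h under anaesthesia (small intestinal segment perfusion, SISP). Every piglet gave a segment with the control digest made without onion (Sd) and an adjacent segment with an onion digest, which was yellow onion (YOd) in pigs 1, 2 and 4 and white onion (WOd) in pigs 5, 6, 7 and 8. Sd was diluted in saline solution and the onion digests in peptone, and the control digest was diluted more than the onion digests, so onion, diluent and amount of digest cannot be told apart. The onions were given to different piglets, so a difference between YOd and WOd is also a difference between sets of piglets.

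The mucosa of the small intestine is rich in leukocytes. T cells lie within the epithelium and below it, macrophages and dendritic cells lie in the lamina propria, and B cells are collected in follicles and patches that are spread unevenly along the gut. T cells carry the CD3 complex with CD4 or CD8, B cells carry the CD79 part of their antigen receptor, and macrophages carry CD14 and CD163. In a scraping, fewer cells of a type and less RNA per cell cannot be told apart.

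The values below are log2 levels, in which 0 is the 75th percentile of an array and the floor, the lowest level counted, is -4.43. They compare samples for 1 gene and not genes with each other. On each array 50.6% to 70.7% of the probes were well above background. The lowest share was that of the Sd array of pig 8. This array also had the most outlier spots, 462 against a median of 53.5 over the arrays, which limits its values. The 2 arrays of a pig lay on 1 slide, except in pigs 2 and 7, where the Sd array lay on another slide than the onion array. The Sd arrays of pigs 2 and 7 were also the only ones scanned on another date. In these piglets onion, slide and scan date cannot be told apart. The enterocyte markers FABP1, FABP2, APOA4 and ANPEP were above the floor on all 14 arrays and saturated on 13 or 14 of them. The defining markers of the labelled tissue were thus present. The Sd array of pig 6 stood apart from the other Sd arrays for CD79A and the B cell marker MS4A1. Of the 39 CD genes, 25 were above the floor on all arrays, 11 on some arrays and 3 on no array. The last were CD40LG, the ligand of CD40 on activated T cells, CD163L1, a scavenger receptor, and CD59, an inhibitor of complement. None of them had another probe, so absent RNA and a probe that does not work cannot be told apart.

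The CD genes differed widely between the Sd segments. The median SD of the 28 CD genes above the floor on all Sd arrays was 0.65 on the log2 scale, and 0.39 over the 2221 genes of which the same held. CD5L, CD8A and CD180 had the largest SD, at 1.77, 1.58 and 1.19. CD82, CD58 and CD46 had the smallest, at 0.23, 0.24 and 0.27. CD82 is a tetraspanin, CD58 is the ligand of CD2 and CD46 controls complement on most cells. The probe of CD82 was saturated on 4 of the 7 Sd arrays, where its level depends on the scaling of the array, so its spread is not well measured.

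**Figure D1:**
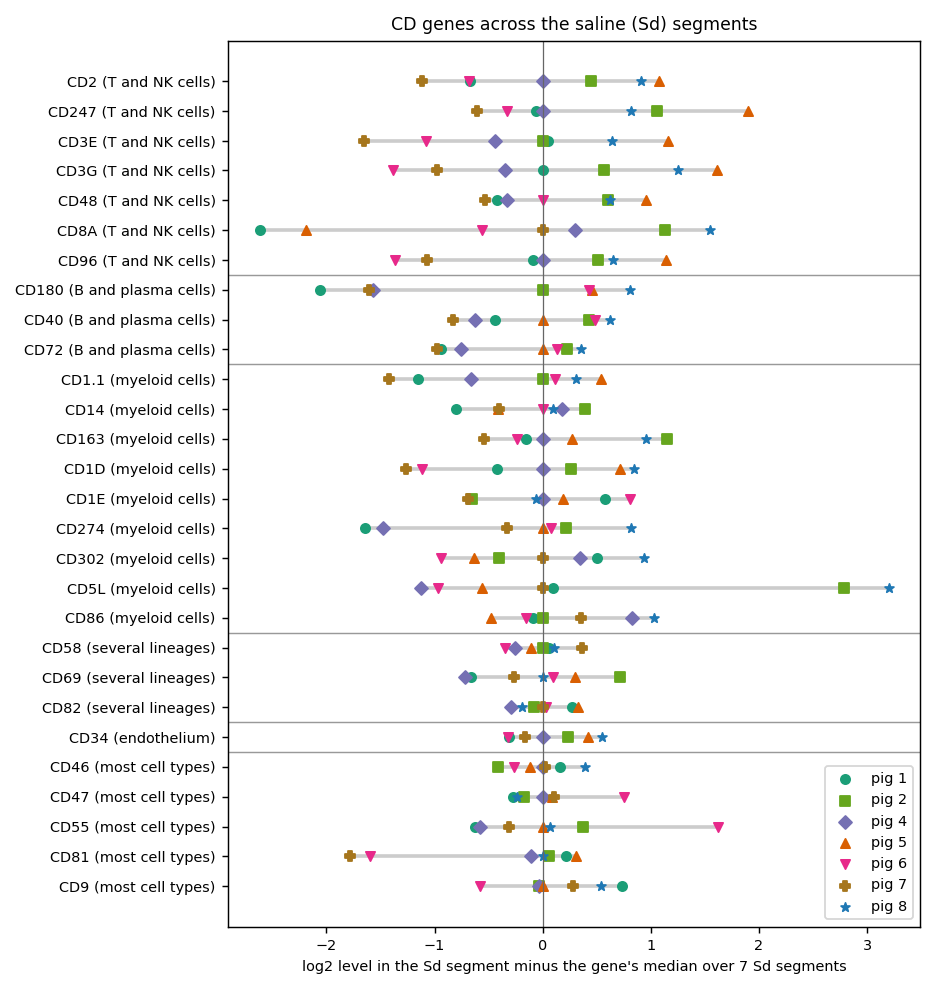
Log2 level of each CD gene in the Sd segments, as the difference from the median of that gene over the 7 Sd segments, with 1 point per pig. The 28 genes above the floor on all Sd arrays are ordered by lineage, and pigs 5 and 8 lie to the right for most T cell genes.

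Of the 7 T and NK genes above the floor on all arrays, 6 were highest in the Sd segment of pig 5, and CD8A was the exception. CD3E, a chain of the CD3 complex, had a level of -0.07 in the lowest Sd segment, 1.58 in the median and 2.74 in the highest. CD3G, another chain of the complex, ranged from -0.14 to 2.86 with a median of 1.25. CD247, the zeta chain that passes on the signal of the receptor, ranged from -0.28 to 2.22 with a median of 0.32. For these 3 genes the highest level was that of pig 5, and pigs 6 and 7 had the lowest levels. The highest Sd segment was 7.02-fold above the lowest for CD3E, 7.99-fold for CD3G and 5.65-fold for CD247.

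CD2 and CD96 are adhesion and signalling receptors of T and NK cells. CD48, which is not confined to these cells, was grouped with them. CD2, CD48 and CD96 were also highest in the Sd segment of pig 5. The highest segment was 4.57-fold above the lowest for CD2, 2.80-fold for CD48 and 5.68-fold for CD96. CD3D, the delta chain, was at the floor in the Sd segment of pig 7 and at -0.94 in that of pig 5. On its other probe, above the floor on all arrays, the Sd levels of CD3D had a smaller range, from -3.33 in pig 7 to -1.67 in pig 5. CD4, the marker of helper T cells, was close to the floor with a highest level of -2.97 and was at the floor on both arrays of pig 7. Of 12 T cell markers outside the CD genes, 5 could be named (LCK, FYN, ICOS, CTLA4 and IL7R). Their summed signal, in units of the 75th percentile, was 1.67 to 4.48 over the Sd segments, 2.89 to 4.09 over the YOd segments and 1.20 to 4.70 over the WOd segments, and it was highest in pig 5 for Sd and for WOd.

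Within the piglets, onion over Sd went both ways for T cell antigens. The log2 ratio of CD3G was 0.67, -0.32 and 0.97 in pigs 1, 2 and 4, and -0.18, 0.20, 1.02 and -0.53 in pigs 5, 6, 7 and 8. That of CD3E was 0.22, 0.21 and 0.62 in the YOd pigs and 0.08, -0.03, 0.52 and -0.48 in the WOd pigs. Both genes were higher with onion in pigs 1, 4 and 7 and lower in pig 8. All 7 T and NK genes above the floor on every array were higher with onion in pigs 1 and 4, 6 of them in pig 7, 3 in pig 2, and 2 in each of pigs 5 and 6. In pig 8 all 7 were lower. The share of all genes higher with onion was 74.3%, 56.1% and 69.3% for pigs 1, 2 and 4, and 55.7%, 62.1%, 63.0% and 40.3% for pigs 5, 6, 7 and 8. It was thus also highest in pigs 1, 4 and 7 and lowest in pig 8.

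Cytotoxic T cells carry CD8A, and here its 2 probes disagreed. On the probe with the higher signal, the Sd segments ranged from -3.27 in pig 1 and -2.85 in pig 5 to 0.90 in pig 8, and WOd over Sd in pig 7 was -2.33. On the other probe the levels were -2.58 and -2.07 in the Sd segments of pigs 1 and 5 and -2.02 in that of pig 8, and the ratio in pig 7 was 1.05. Pig 7 was thus higher with WOd on the latter probe, as it was for CD3E and CD3G, and lower on the first. The probes of CD3D also disagreed in pig 7, with a ratio of at least 0.99 on the probe used and -0.65 on the other. For the 10 CD genes with several probes above the floor on all arrays, the ratios of the probe used and another probe had the same sign in 84 of 126 comparisons. The SD over the Sd segments was 1.58 on the first probe and 0.77 on the other. The fold change of CD8A for WOd was -0.64 ± 0.41 (SE, n = 4 pigs) and -0.20 with the mean of both probes, neither of which passed the test.

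**Figure D2:**
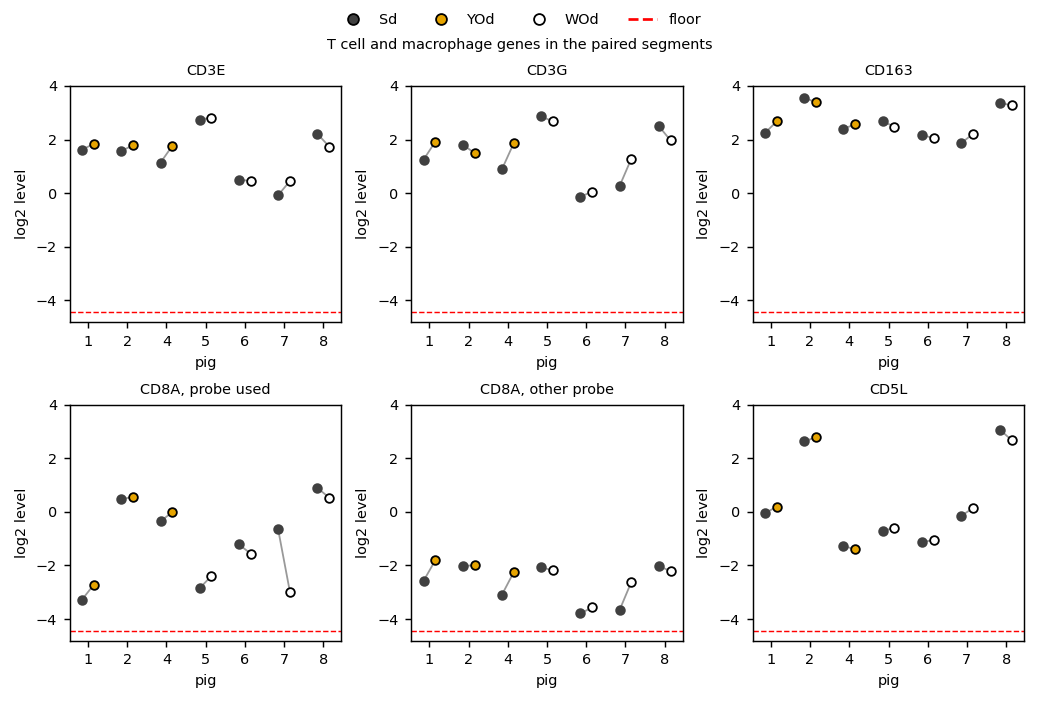
Log2 levels in the Sd segment (dark) and the onion segment (yellow for YOd, white for WOd) of each pig, with the floor as a dashed line. The 2 probes of CD8A part in pig 7, and CD5L is high in both segments of pigs 2 and 8.

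Among the antigens grouped with B cells, CD79A stood out in 1 segment. CD180, CD72 and CD40 were highest in the Sd segment of pig 8, where MS4A1 was at the floor. Of 7 named markers of monocytes, macrophages and granulocytes, TYROBP, FCER1G, AIF1 and S100A9 had their highest Sd level there, at 3.70, 3.47, 4.98 and 0.28. LYZ and S100A8 did not, and SPI1 was at the floor in all Sd segments. Markers of other cells were also highest in that segment. These were GZMA and NKG7 of cytotoxic cells, at 5.17 and 1.80, IL7R of T cells, at -3.31, and CDH5 of endothelium, at 0.54. Other markers of these lists, such as LCK, GZMB and VWF, were not. The cells that CD180, CD72 and CD40 came from were not tested. CD79A, a chain of the B cell receptor complex, had a level of -0.25 in the Sd segment of pig 6, and its next highest Sd level was -3.03 in pig 2. The WOd segment of pig 6 was at the floor. Its Sd segment was therefore at least 18.2-fold above its WOd segment. In the other piglets the CD79A ratios lay between 0.03 and 0.33 on the log2 scale, except pig 7, where both segments were at the floor.

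Other CD genes were also lower with WOd in pig 6. The log2 ratio of WOd over Sd was -1.79 for CD180, a receptor related to the Toll family on B cells. It was -1.09 for CD72 and -0.99 for CD40, both receptors of B cells, and -2.81 for CD55, which protects cells from complement. The Sd level of CD55 was -0.32 in pig 6, and those of the remaining piglets ran from -2.57 to -1.56. The second probe of CD55 gave -2.28 for the ratio in pig 6. CD247 and CD48 were lower too, at -1.18 and -1.07, whereas CD3E, CD3G and CD96 had ratios of -0.03, 0.20 and 0.11.

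Among the B cell and follicle markers outside the CD genes, 5 of 12 could be named. MS4A1, which encodes CD20, was 0.92 in the Sd segment of pig 6 and at the floor in its WOd segment. It was thus high in the same segment as CD79A. In pig 2 it was -3.00 with Sd and -2.98 with YOd, and it was at the floor in the segments of the other 5 piglets. BTK had its highest Sd level in pig 6, at -2.09, and its log2 ratio in that piglet was -1.90. In pig 7 the ratio of BTK was at most -1.04, with the WOd segment at the floor. FCER2 was at the floor on all arrays. The summed signal of the 5 markers was 22.5 to 40.6 over the Sd segments, 23.9 to 55.7 over YOd and 22.0 to 30.7 over WOd, and nearly all of it was BLNK, which was not higher in pig 6. The part of follicles in the values of pig 6 was not tested. Without pig 6, the WOd/Sd fold change of CD79A went from -0.98 ± 0.72 (SE, n = 4 pigs) to 0.082, that of CD180 from -0.33 to 0.15 and that of CD55 from -0.70 to 0.0047.

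**Figure D3:**
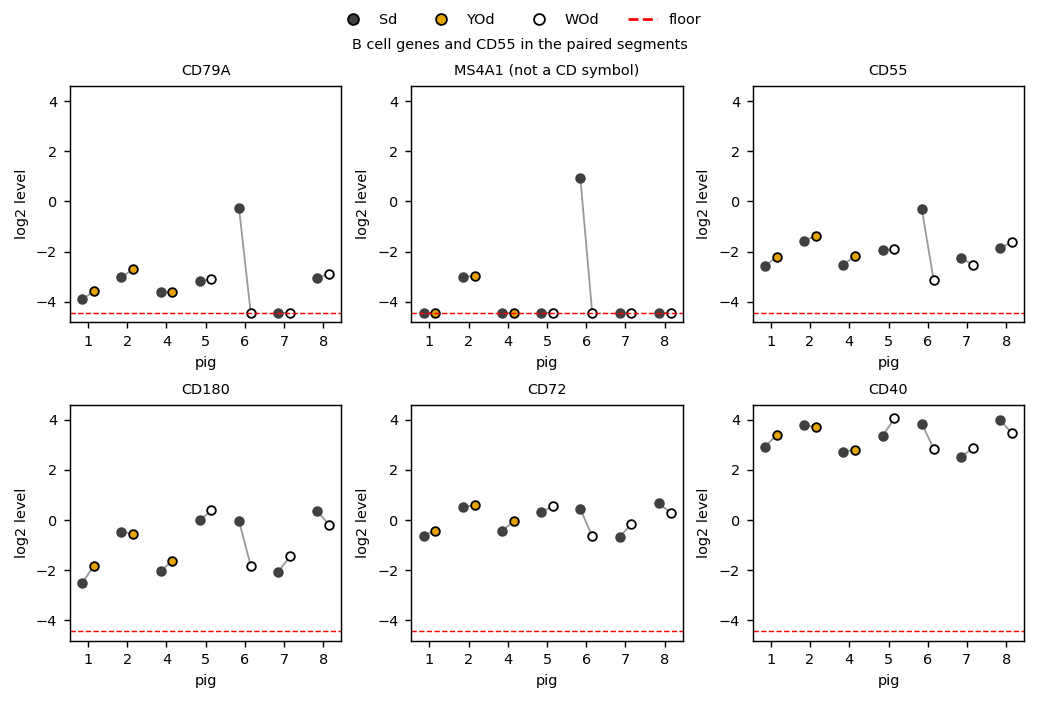
Log2 levels of genes grouped with B cells and of CD55 in the Sd segment (dark) and the onion segment (yellow for YOd, white for WOd). The floor is a dashed line. MS4A1 is not a CD gene by the rule. CD79A, MS4A1 and CD55 are highest in the Sd segment of pig 6, and all 6 genes are lower in its WOd segment.

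CD5L and CD163 differed more between the piglets than between the segments of a piglet. CD5L, a protein secreted by macrophages and named for its likeness to CD5, had an Sd level of 2.63 in pig 2 and 3.05 in pig 8. The other 5 Sd levels ran from -1.27 to -0.05. Onion over Sd lay between -0.39 and 0.29 on the log2 scale in all piglets. The SD over the Sd segments was 7.57-fold that of the ratios. Both other CD5L probes above the floor on all arrays were also high in these 2 piglets, with SDs of 1.81 and 1.83 over the Sd segments. CD163, the scavenger receptor for haemoglobin, was also highest in the Sd segments of pigs 2 and 8, at 3.56 and 3.37, and ranged from 1.86 to 2.68 in the others. Its ratios lay between -0.19 and 0.43. For 18 of the 27 CD genes with values in all segments the SD over the Sd segments was larger than that of the ratios, a share of 66.7%, and it was 66.1% over all genes.

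CD14, the receptor for lipopolysaccharide, was -0.99 in the lowest Sd segment, -0.18 in the median and 0.21 in the highest, and its ratio was largest in pig 5 at 1.03. CD86, a costimulatory ligand, ranged from 1.80 to 3.30 over the Sd segments, with ratios between -0.62 and 0.36. CD80, the other ligand of CD28, was near the floor in the Sd segments, with a highest level of -3.53. In the WOd segment of pig 7 it was -1.19 and the ratio was 2.90, and in the YOd segment of pig 4 it was -2.77, a ratio of at least 1.66 since its Sd segment was at the floor. The remaining ratios were between -0.53 and 0.96. The onion segments of pigs 1 and 6 were at the floor, so the ratios of these piglets are upper bounds. CD274, also known as PD-L1, was 1.69 higher with WOd in pig 5, 1.14 higher with YOd in pig 4 and 0.91 higher with WOd in pig 7, and within 0.30 of Sd in the other 4. CD1D, which presents lipids to T cells, had ratios from -0.71 in pig 5 to 0.71 in pig 4. CD207 was near the floor on all arrays and CD209 above it on 1 array.

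**Figure D4:**
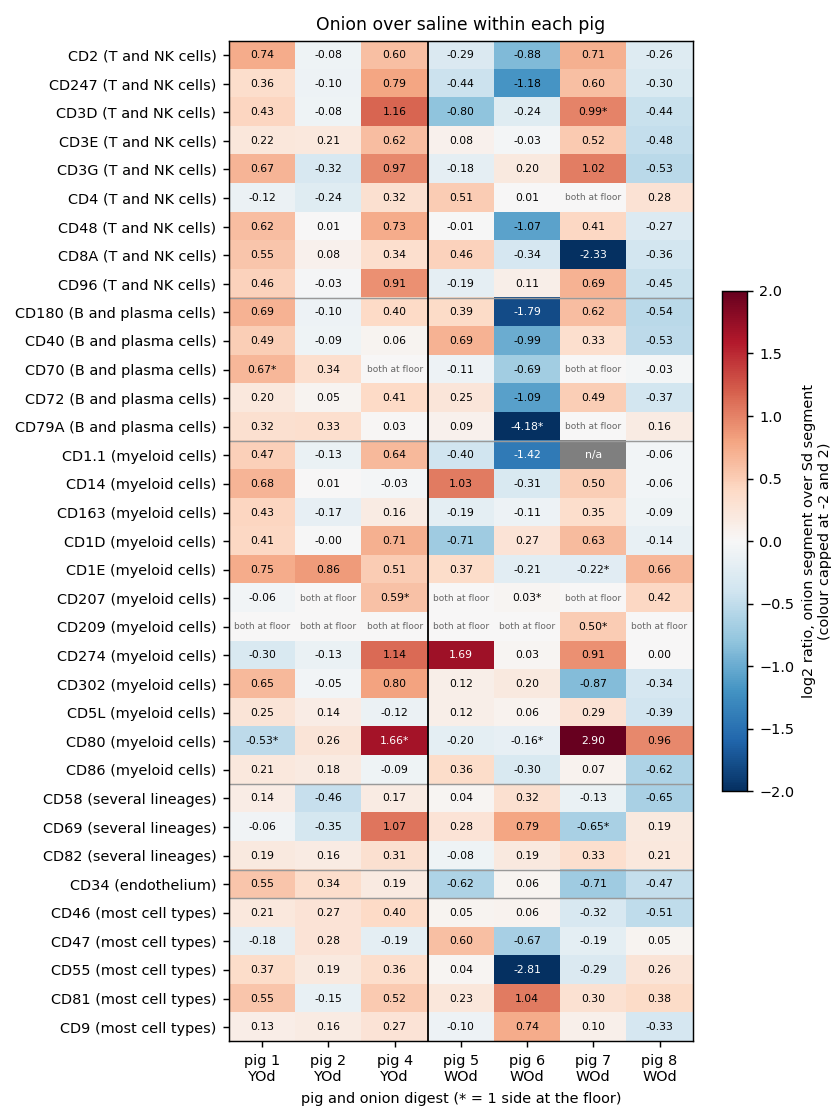
Onion over Sd, as a log2 ratio within each pig, for 35 CD genes above the floor on at least 1 array, with red for higher with onion and blue for lower. An asterisk marks a ratio with 1 side at the floor, and the column of pig 6 holds the lowest ratios, those of CD79A and CD55.

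The piglets also differed in how many CD genes were past a 1.5-fold difference. Of the 25 CD genes above the floor on all arrays, 9 differed by over 1.5-fold between the segments of pig 4, 10 in pig 6 and 10 in pig 7. The share of all 2180 such genes past the same fold was 24.0%, 15.4% and 17.3%. In pig 4 all 9 were higher with YOd, and in pig 6 8 of 10 were lower with WOd. In pig 2 none of the 25 passed, with 1.47% of all genes. In pigs 1, 5 and 8 these numbers were 6, 6 and 2, with 13.4%, 14.6% and 10.7% of all genes.

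For YOd/Sd, 1 of the 34 CD genes tested was affected (raw p below 0.05 and a fold change over 1.5), against 4.50% of all genes. This was CD1E, a protein that helps to load lipids on CD1 molecules in dendritic cells. In the YOd pigs 1, 2 and 4 its level was -2.94, -4.17 and -3.52 in the Sd segments and -2.20, -3.32 and -3.01 in the YOd segments. The YOd segment was higher in all 3 piglets, and the values of both groups overlapped. The log2 fold change was 0.70 ± 0.15 (SE, n = 3 pigs), with an adjusted p of 0.391 by limma. No CD gene had an adjusted p (Benjamini-Hochberg) below 0.05 by limma in this or the other comparisons. The value of CD1E was not past the thresholds without scaling of the arrays, with normexp and quantile normalization or with the authors' values, at 0.40, 0.31 and 0.28. The same held without the pig as a block, and relative to the median of all genes, where it was 0.56.

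The fold changes of the tested CD genes were above 0 for 31 of 34 in YOd/Sd, with a median of 0.31, and for 73.1% of all genes, with a median of 0.14. The highest of the remaining genes were CD3D at 0.50 and CD302, a lectin receptor of phagocytes, at 0.47. CD58 had the lowest value, at -0.05. Without scaling of the arrays the median of all genes was -0.16 instead of 0.14, and 15 of 33 CD genes were above 0. The direction of the CD genes for YOd thus depended on the scaling. Relative to the median of all genes, the median of the CD genes was 0.16 both with and without scaling.

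Leaving out pig 2, whose arrays were on different slides, gave 7 affected genes out of 33 in YOd/Sd, all higher with YOd, against 13.0% of all genes in either direction and 9.99% higher with YOd. These were CD1E, CD2, CD3D, CD3G, CD48, CD96 and CD302.

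For WOd/Sd, 0 of the 33 CD genes tested were affected by limma, against 1.18% of all genes. CD34 and CD81 had an unadjusted p below 0.05, as had 2.59% of all genes, but less than a 1.5-fold change. The fold change was above 0 for 14 of 33 CD genes, with a median of -0.10, and for 60.6% of all genes, with a median of 0.04. Without pig 6 it was above 0 for 20 of 33, with a median of 0.02. The largest values were 0.88 ± 0.50 for CD80 and -0.98 ± 0.72 for CD79A (SE, n = 4 pigs), each with an adjusted p of 0.998 by limma. The former rested on pig 7 and was 0.20 without it. The latter rested on pig 6, as described above. Without pig 7, 2 genes were affected, CD1.1 and CD247, both lower with WOd, against 3.51% of all genes. The fold change of CD1.1 was -0.63 with and without pig 7, since the fit had no ratio of CD1.1 for that piglet. Only its unadjusted p by limma moved, from 0.078 to 0.048. Without pig 6 there were also 2, CD274, which was higher, and CD34, which was lower, against 1.82% of all genes. Without pig 5 there was 1, CD8A, which was lower, against 2.32%. This call rests on the CD8A probe with the higher signal, which disagreed with the other probe in pig 7. Leaving out pig 8 gave 0 affected CD genes by limma, against 1.74% of all genes. At an unadjusted p below 0.05 alone it also gave 0, against 82 of 2468 genes of all kinds.

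**Figure D5:**
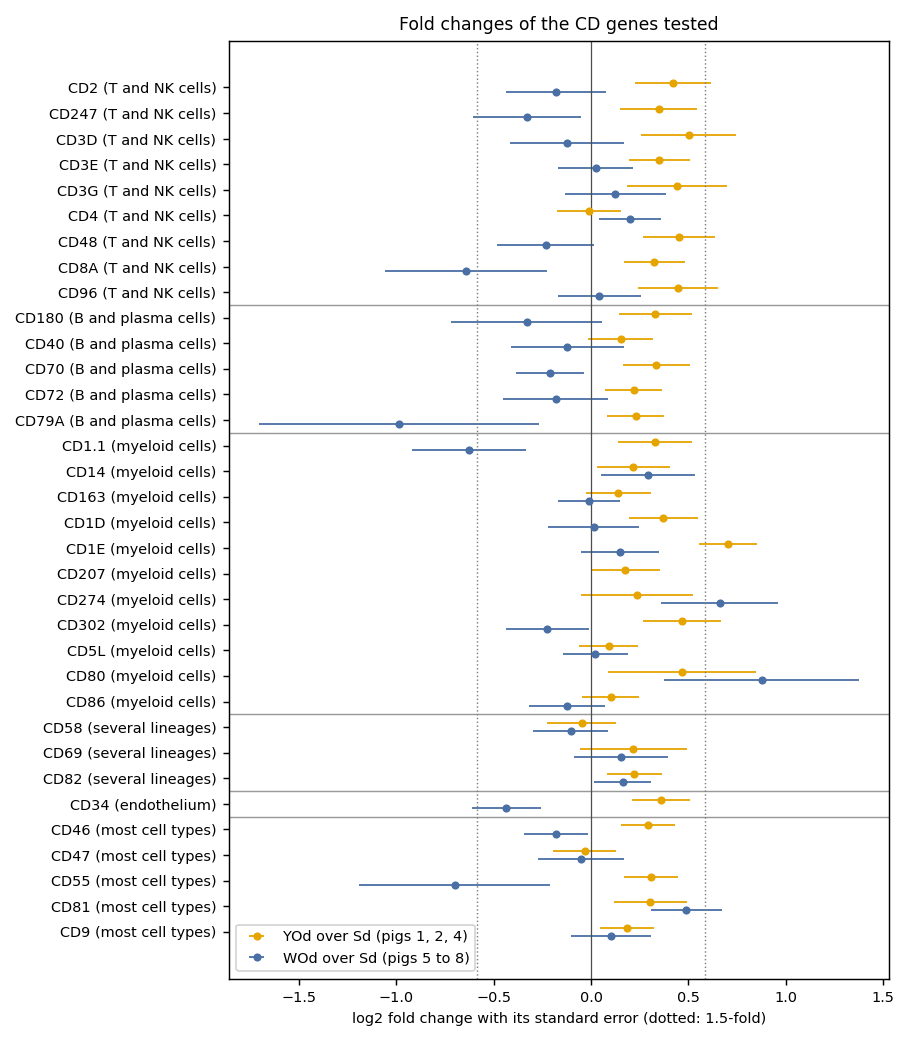
Log2 fold change over Sd with its standard error for the CD genes tested, for YOd (yellow, n = 3 pigs) and WOd (blue, n = 4 pigs), with dotted lines at 1.5-fold. CD1E is the only gene past both thresholds, and CD79A, CD55, CD80 and CD8A have wide errors for WOd.

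Over the 7 piglets, 0 of 33 CD genes were affected by limma, against 1.22% of all genes. CD1E and CD81 had an unadjusted p below 0.05, as had 6.85% of all genes. CD81, a tetraspanin found on most cells, was higher with onion in 6 of 7 piglets. Its level was 1.39 in the lowest Sd segment, 3.17 in the median and 3.47 in the highest, and pigs 6 and 7 were low in Sd. The log2 fold change was 0.41 ± 0.13 (SE, n = 7 pigs), with an adjusted p of 0.635 by limma. CD80 had the largest value, at 0.70, and CD79A the lowest, at -0.46. None of the CD genes had ratios of 1 sign in all 7 piglets, and 39 of 2221 genes of all kinds did. Without pig 1, 2 genes were affected, CD80 and CD274, both higher with onion, against 0.693% of all genes.

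The difference between the effects of YOd and WOd was past the thresholds for 2 of 35 CD genes, against 3.52% of all genes. CD34, a marker of endothelium and of blood-forming progenitors, ranged from -1.79 to -0.92 over the Sd segments, with a median of -1.47. The log2 ratio was 0.55, 0.34 and 0.19 in the YOd pigs and -0.62, 0.06, -0.71 and -0.47 in the WOd pigs. The ratios of both sets of piglets did not overlap. CD34 was picked on the difference between these same ratios, so this adds no support. The difference, YOd less WOd, was 0.80 ± 0.24 (SE, n = 7 pigs), with an adjusted p of 0.850 by limma. The 2 other probes of CD34 were above the floor on 2 and 0 arrays. With the mean of the 2 probes above the floor on any array the value was 0.23 and no longer past the threshold. A mean with a probe at the floor on most arrays shrinks the value, so this fit cannot check the probe used. Without scaling of the arrays the difference of CD34 was 0.52 and not past the threshold either.

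Of the endothelial markers outside the CD genes, 3 of 5 could be named (PECAM1, VWF and CDH5), and 0 of 3 were affected in this comparison by limma, although CDH5 had an unadjusted p below 0.05. Their median difference was 0.47. Their summed signal was 2.94 to 8.03 over the Sd segments, 5.70 to 7.77 over YOd and 2.96 to 7.61 over WOd. The part of endothelium in the value of CD34 was not tested.

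CD1.1, a pig member of the CD1 family that presents lipids, was the other. Its ratio was 0.47, -0.13 and 0.64 in the YOd pigs and -0.40, -1.42 and -0.06 in pigs 5, 6 and 8, and the ratios of both sets overlapped. The spot of the WOd segment of pig 7 was an outlier and was left out, so the fit had no ratio for pig 7. The difference was 0.95 ± 0.39, with an adjusted p of 0.850 by limma, and without pig 6 it was 0.56 and no longer past the threshold. It was also not past the threshold without pig 1 and without pig 4, at 0.88 and 0.80. With the authors' values the difference was -0.14, but outlier spots were not left out of those, so the spot of pig 7 could enter.

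CD79A had a difference of 1.21, which was 0.15 without pig 6, and CD274 had the lowest, at -0.42. Neither passed the test. The count depended on few piglets. It was 6 of 35 without pig 7, 4 of 35 without pig 5 and 1 of 35 without pig 1, against 4.49%, 4.81% and 1.81% of all genes. Without pigs 2 and 7 together, a choice made after the data were seen, it was 9 of 34, against 7.64% of all genes in either direction and 6.05% with a higher value for YOd. These 9 were CD1.1, CD2, CD247, CD302, CD34, CD3D, CD3G, CD48 and CD96, all with a higher value for YOd.

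CD9, CD47 and CD46 are found on epithelium and most other cells. Over the Sd segments CD9, a tetraspanin, ranged from 4.94 to 6.26, CD47, which restrains uptake by macrophages, from 2.86 to 3.88 and CD46 from 1.03 to 1.83. Their fold changes were between -0.18 and 0.29 for both onions, and none of these passed the test. CD69, an early marker of activated lymphocytes, was between -4.24 and -2.81 in the Sd segments, and its ratio was largest in pig 4 at 1.07. CD70, a ligand from activated lymphocytes, was above the floor on 9 of 14 arrays with a highest level of -3.72.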

How the data were processed

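Mucosal scrapings of the SISP model were measured on 1-colour Agilent arrays, 14 in all. The authors deposited Feature Extraction files (version 10.7.3.1) with the intensity of each spot after background subtraction and detrending, and a table of log2 values centred per probe, which was used as an alternative. The submitters' processing notes name RMA. The 43803 spots gave 43603 probes, of which 6686 were named through a RefSeq accession and the Sscrofa11.1 reference, used for names only. Each array was divided by its 75th percentile and floored at the pooled 40th percentile before log2 values were taken.

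Genes above the floor on at least as many arrays as the smallest group held (7 for onion/Sd) were fitted with limma (version 3.58.1, R version 4.3.3). Pig was a blocking factor, since both segments came from 1 animal. Once group means were removed, same-pig arrays had correlations between 0.470 and 0.793. Affected genes were those with a fold change over 1.5 at an unadjusted p below 0.05. Each piglet was 1 replicate. The fits were tested on simulated data. Other steps were run in Python 3.11.15.

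The members and lists were chosen with earlier results of these data known. Genes were named by a rule: lineage antigens, all affected members, the 3 largest and smallest SDs over Sd, the extremes of each comparison and members with 1 sign in all piglets. MS4A1 is from the marker lists. Of the genes counted, 1 CD gene and 1 marker are not reported here. CD55 and CD247 in pig 6, CD274 and CD302 and the second CD8A probe were described after their values were seen. Alternatives covered normalization, background, floor, filter, probe choice, the authors' values, the block, the slide and each pig left out. The number of arrays limits the precision. Pig 3 was not analysed here.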

Additional observations from a re-analysis of the deposited data

Results flagged for a closer look

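In the groups of 4 or 7 segments, 68 levels were searched for a segment far from the others, and 5 were found. Chance gives about 1 in 20 such groups where no values are tied. In the Sd segment of pig 6, CD79A was -0.25 against a median of -3.40 in the other Sd segments, and CD47 was 3.88 against 3.05. In the WOd segments, CD1E was -4.43 in pig 7, which is the floor, against -2.92. CD207 was -3.82 in pig 8 and CD209 was -3.93 in pig 7, each with the median of the others at the floor of -4.43. Values tied at the floor make any level above it stand far from the others, so that rate does not apply to these 2 genes.

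The effect of YOd differed from that of WOd past the thresholds, in a fit with the treatment by onion term, for CD34 with a log2 difference of 0.80 and for CD1.1 with 0.95. Both adjusted p values by limma were 0.850.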

How the results depend on the processing

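The number of affected CD genes moved with the processing. In YOd/Sd it was 1, and 0 without scaling, with normexp and quantile normalization, with the authors' values and relative to the median of all genes, 2 with no floor, 7 with the slide as a block or without pigs 2 and 7, and 1 to 7 with 1 pig left out (7 without pig 2, 2 without pig 1). In WOd/Sd it was 0, and 1 with the mean of all probes, 2 with the slide as a block or without pigs 2 and 7, and 0 to 2 with 1 pig left out (1 without pig 5, 2 without pig 6 or 7). Over the 7 piglets it was 0, and 0 to 2 with 1 pig left out (2 without pig 1). For the difference between the onions it was 2, and 0 without scaling. It was 1 with normexp and quantile normalization, with no filter, with the authors' values and relative to the median of all genes. It was 3 with no floor and 3 with the mean of all probes. It was 9 with the slide as a block or without pigs 2 and 7, and 1 to 6 with 1 pig left out. Without the replicate block the pairing of the segments was ignored, and the counts were 0 in YOd/Sd and 0 for the difference between the onions.

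The difference of CD1.1 was -0.14 with the authors' values. Outlier spots were not left out of those values, so the 2 fits of CD1.1 may cover different piglets. CD58 in YOd/Sd was 0.0012 with the mean of all probes, 0.16 with the slide as a block or without pigs 2 and 7, and -0.16 to 0.16 with 1 pig left out, the highest without pig 2. With 1 pig left out CD79A was -1.37 to 0.082 in WOd/Sd and -0.60 to 0.16 over the 7 piglets, the highest without pig 6 in both. The causes were not tested. The median SD over the Sd segments ranged from 0.59 to 0.78 over the alternatives. Without scaling, 8 of 103 affected genes of all kinds were higher in YOd/Sd, against 88 of 111 with it. Signal over background limits the dim genes, since values at the floor have no order.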

Other observations

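The granzymes and the receptor KLRK1 of cytotoxic lymphocytes, which are not CD genes by the rule, were measured beside them. The log2 ratio of GZMA was 0.34, 0.03 and 1.07 in pigs 1, 2 and 4, and -0.07, 0.55, 1.02 and -0.78 in pigs 5, 6, 7 and 8. That of KLRK1 was 0.70, -0.26 and 0.80 in the YOd pigs and -0.58, 0.35, 0.73 and -0.33 in the WOd pigs. Both were higher with onion in pigs 1, 4 and 7 and lower in pig 8, as were GZMB, GZMH and NKG7. The share of all genes higher with onion was 74.3%, 69.3% and 63.0% in pigs 1, 4 and 7 and 40.3% in pig 8. The pattern was thus not particular to these markers. Of the 34 marker genes tested in YOd/Sd, 1 was affected, against 4.50% of all genes. This was S100A9, a calcium-binding protein of neutrophils and monocytes, with ratios of 1.51, 0.10 and 0.41 in pigs 1, 2 and 4, a log2 fold change of 0.67 ± 0.27 (SE, n = 3 pigs) and an adjusted p of 0.391 by limma.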
